A study of Mus musculus with 48 samples.

Results

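The livers of 8 mice collected at ZT12 were compared, 4 KO and 4 WT. They were taken from the table of gene counts as the columns labelled ZT12-KO and ZT12-WT, 8 of the 48 libraries of the series. ZT, zeitgeber time, counts hours from the time at which the lights came on, so ZT12 is the time at which they would have gone off. All mice were female C57BL/6J, had lived on 12 h of light and 12 h of darkness, spent 1 day in constant darkness before collection, and had been fasted for 24 h. The KO mice carried a deletion of Bmal1 (gene symbol Arntl) in adipocytes, and the labels do not name the Cre line or promoter that drove it. The WT mice are labelled WT, with no further genotype given. Ages by replicate number were 51.25, 51.25, 79.25 and 46 weeks in the KO mice, and likewise in the WT mice.

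BMAL1 pairs with CLOCK or its paralog NPAS2 and binds E-box sequences, which drives Per, Cry, Nr1d1, Dbp and other genes. PER and CRY proteins then inhibit the pair, and NR1D1 (REV-ERB alpha) represses Arntl, Npas2 and Clock through ROR elements. In liver this clock times the genes of glucose, lipid and bile acid metabolism, which also respond to feeding, fasting and glucocorticoids. Bmal1 was deleted in another tissue, so the liver level of Arntl does not check the genotype labels.

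The series held 23 KO and 25 WT livers at 6 times, and the 48 libraries held 12841969 to 13009797 counts each without Alb. At ZT12 the markers of hepatocytes summed to 35296 to 50934 CPM (counts scaled to a library size that all livers share) in KO livers and 34534 to 49189 CPM in WT livers, which fits the tissue label. Of 9 adipocyte markers only Lpl and Fabp4, which other cells also express, passed the count filter, and these 2 summed to 29.6 to 39.4 CPM in KO livers and 8.83 to 30.5 CPM in WT livers. Adipoq, the adipocyte hormone adiponectin, had 1 or 2 counts in each KO liver, against 0, 12, 1 and 0 counts in WT livers, and Plin1 had 0 counts in every liver except WT 2, which had 1. Cfd, the adipocyte protease adipsin, had 0, 3, 3 and 0 counts in KO livers and 0, 22, 1 and 0 counts in WT livers, so Adipoq and Cfd were highest in WT 2. Library construction took 3 days per the labels' protocols, and the day of each library is not in the labels, so day and genotype cannot be told apart.

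Among the ZT12 libraries, WT 3 and WT 4 stood apart from the other 6. Over 9737 genes, the correlation of log2 levels with the other 6 libraries was 0.885 to 0.948 for this pair, against 0.956 to 0.984 among the other 6 and 0.971 between WT 3 and WT 4. Levels also leaned with the GC content of the transcripts, by 0.51 log2 units per 10 percentage points in both WT 3 and WT 4, against -0.38 and -0.29 in the other WT livers and -0.46 to -0.11 in KO livers. Neutrophil transcripts summed to 18.4 to 30.5 CPM in KO livers and 21.8 to 464 CPM in WT livers, with 146 CPM in WT 3 and 464 CPM in WT 4. In WT 3 nearly all of this was Lcn2, which is also on the acute phase list below. The mean log2 level of the neutrophil list was 3.75 in WT 4, against -1.19 to -0.79 in the other WT livers and -1.24 to -0.30 in KO livers. Lymphocyte transcripts summed to 21.6 to 31.7 CPM in KO livers and 22.9 to 352 CPM in WT livers, with the highest sum in WT 3. Most of the 352 CPM in WT 3 came from the immunoglobulin genes Ighm (294 CPM) and Igj (36.1 CPM), while Cd79a and Cd79b each had 3.75 CPM there. In whole liver, fewer cells of a type and less RNA per cell cannot be told apart. Differences are also given without this pair where that turned the sign or moved the value by over 1.5 times, a comparison added after the data were seen.

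The KO livers also differed among themselves in clock gene levels. By the 24 core clock genes, KO 2 and KO 3 were nearer to the mean WT profile of ZT16 (root mean square distance 0.73 and 0.64 log2 units) than to that of ZT12 (1.24 and 1.25). KO 1, KO 4 and all 4 WT livers were nearest to the WT profile of ZT12. For each WT liver that profile was the mean of the other WT livers of ZT12. The part that this plays in the results below was not tested.

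No gene passed the test between KO and WT livers at ZT12. Of 13646 genes tested with edgeR's quasi-likelihood test, 0 (0%) had a Benjamini-Hochberg adjusted p under 0.05, and the smallest was 0.0681, of Aim1l. At an unadjusted p under 0.05, 176 genes were higher in KO livers (1.29%) and 424 were lower (3.11%), 600 in all (4.4%). A difference of at least 1 on the log2 scale was found for 107 genes higher (0.784%) and 437 lower (3.2%) in KO livers, called or not. DESeq2 called 3 genes, Aim1l and Dusp1, which were lower in KO livers, and Pxdn, which was higher. The median difference over all genes was -0.01 on the log2 scale with a median standard error (SE) of 0.29, and the median size of the difference, 0.21, was below that SE. Without WT 3 and WT 4, the unadjusted counts were 301 higher and 261 lower, so lower genes no longer outnumbered higher ones.

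A further contrast asked whether the KO minus WT difference at ZT12 departed from its mean over the other 5 times. No gene passed (smallest adjusted p 0.99994 by edgeR with Benjamini-Hochberg adjustment), and 193 genes (1.41%) had an unadjusted p under 0.05. DESeq2 called 0 genes as well. No difference described here is therefore shown to be particular to ZT12. Values per mouse below are in CPM and follow replicate numbers 1 to 4, and differences are KO minus WT on the log2 scale.

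The 8 genes higher in KO livers with the smallest p were Pxdn, Mpzl1, Npas2, Cldn1, Arntl, Spon2, Rad51l3 and Clpx, none of them past the threshold in edgeR, while DESeq2 called Pxdn. Pxdn encodes peroxidasin, an enzyme that crosslinks basement membrane collagen, and had 9.95, 12.1, 11.6 and 9.61 CPM in KO livers, against 6.96, 7.93, 4.58 and 3.99 CPM in WT livers. Every KO liver lay above every WT liver. The difference was 0.88 (SE 0.19, edgeR adjusted p = 0.186, Benjamini-Hochberg), and 0.53 without WT 3 and WT 4.

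Cldn1 encodes claudin-1, a tight junction protein that in liver seals the bile canaliculi. Its levels were 30.9, 63.2, 51.5 and 35.7 CPM in KO livers, against 18.8, 22.8, 20.2 and 25.0 CPM in WT livers, a difference of 1.06 (SE 0.27). All KO livers were above all WT livers, and the difference was 1.11 without WT 3 and WT 4. Mpzl1, a cell surface glycoprotein, had 3.24, 4.00, 5.16 and 4.95 CPM in KO livers and 2.05, 1.87, 0.750 and 1.91 CPM in WT livers, a difference of 1.39 (SE 0.32). Clpx, the ATPase subunit of a mitochondrial protease, had 101, 230.4, 318 and 109 CPM in KO livers and 88.8, 122, 98.4 and 92.5 CPM in WT livers. Its groups overlapped, and KO 2 and KO 3, the livers with the later clock profile, held its highest levels.

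Spon2, a secreted matrix protein, likewise had its highest levels in KO 2 and KO 3. Its levels were 2.19, 8.497, 12.4 and 5.40 CPM in KO livers, against 1.56, 2.02, 1.58 and 2.41 CPM in WT livers, a difference of 1.90 (SE 0.51), with KO 1 inside the WT range. Rad51l3, a gene of DNA repair, averaged 19.9 ± 3.93 CPM in KO livers and 13.5 ± 2.46 CPM in WT livers (SD, n = 4 each), a difference of 0.56 (SE 0.17).

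The 8 genes lower in KO livers with the smallest p were Aim1l, Dusp1, Rec8, Itprip, Slc5a6, Gnat1, Ano1 and Slco3a1, again with none past the threshold in edgeR, while DESeq2 called Aim1l and Dusp1. Aim1l, which encodes a protein of the crystallin beta-gamma family, had 0.603, 0.666, 0.242 and 0.300 CPM in KO livers, against 2.46, 2.99, 10.5 and 3.91 CPM in WT livers. The groups did not overlap, and WT 3 was the highest. The difference was -3.43 (SE 0.65, edgeR adjusted p = 0.0681, Benjamini-Hochberg), and -2.57 without WT 3 and WT 4.

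Dusp1 encodes a phosphatase that turns off MAP kinases and is induced by stress and by glucocorticoids. Its levels were 34.4, 22.3, 22.3 and 14.3 CPM in KO livers, against 108, 117, 56.1 and 58.2 CPM in WT livers. The highest KO liver was below the lowest WT liver, and here WT 3 and WT 4 were the lower of the WT livers. The difference was -1.86 (SE 0.43, edgeR adjusted p = 0.322, Benjamini-Hochberg) with all livers and -2.27 without that pair.

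Rec8, a cohesin subunit of meiotic chromosomes, had 0.527, 0.417, 0.161 and 0.450 CPM in KO livers and 1.39, 2.02, 2.58 and 1.33 CPM in WT livers, with no overlap and a difference of -2.20 (SE 0.54). Slc5a6, a transporter of biotin and pantothenate, had 11.6, 8.08, 7.42 and 8.86 CPM in KO livers and 14.1, 13.996, 20.7 and 18.9 CPM in WT livers, a difference of -0.91 (SE 0.24). The chloride channel Ano1 (-1.003), the anion transporter Slco3a1 (-0.96) and Itprip (-1.58), named for its interaction with inositol trisphosphate receptors, also had every KO liver below every WT liver. Gnat1, the rod transducin alpha subunit, rested on WT 3 and WT 4. Its levels were 0.904, 0.4999, 0.564 and 1.05 CPM in KO livers, against 1.06, 0.374, 5.50 and 19.1 CPM in WT livers, and its difference of -3.08 was 0.09 without that pair.

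**Figure D1:**
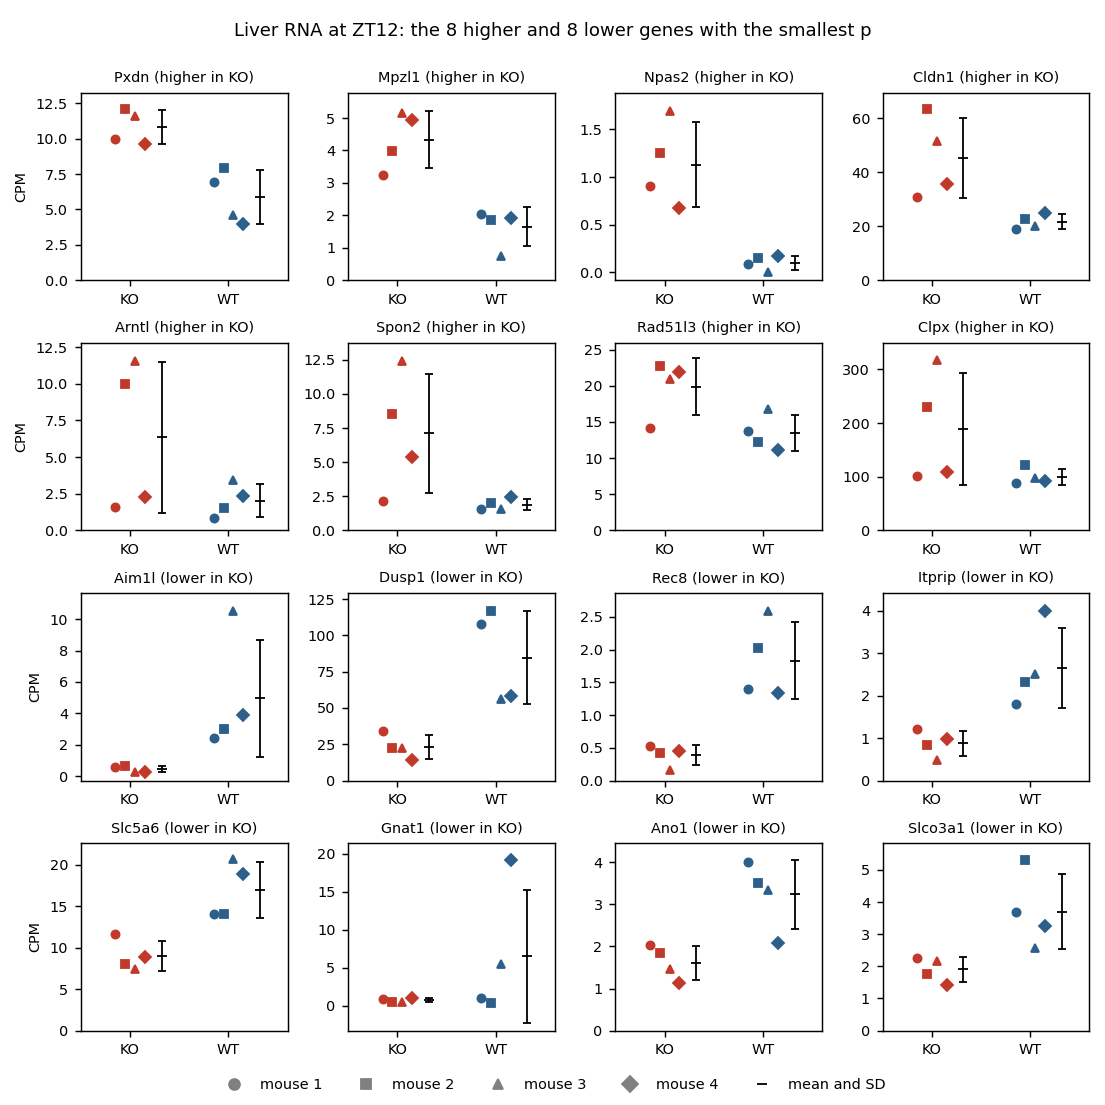
Levels in CPM of the 8 genes higher and the 8 genes lower in KO livers with the smallest p at ZT12, 1 panel a gene, KO mice left and WT mice right; points are mice, and bars show the mean and SD of 4 mice. Aim1l lies at 0.242 to 0.666 CPM in KO livers and 2.46 to 10.5 CPM in WT livers, while the WT points of Gnat1 spread between 0.374 and 19.1 CPM.

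The core clock was described for all 24 genes of the list, of which all were tested, and edgeR called none of the 550 entries tested in this or any list below, while DESeq2 called Dusp1 among them. Of the 24, 7 were above 0 and 17 below 0, with a median of -0.21, against 48.1% above and 51.9% below over all genes. KO livers lay wholly above WT livers for 1 gene, Npas2 (1.35% of all genes did so), and wholly below for 3, Per1, Bhlhe41 and Gm129 (1.9% of all genes). Without WT 3 and WT 4 the list had 11 genes above 0 and 13 below, with a median of -0.13.

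The activators of the loop were at higher levels in some KO livers. Npas2, the CLOCK paralog, had 0.904, 1.25, 1.69 and 0.675 CPM in KO livers, against 0.0819, 0.150, 0 and 0.166 CPM in WT livers. The WT levels rest on 0 to 2 reads a library, so the difference of 3.36 (SE 0.83, edgeR adjusted p = 0.469, Benjamini-Hochberg) is imprecise. At ZT16 the mean level of Npas2 was 2.34 ± 1.08 CPM in KO livers (SD, n = 3) and 0.310 ± 0.215 CPM in WT livers (SD, n = 5), so the KO livers of ZT12 were above the WT livers of both times.

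Arntl itself, on chromosome 7 at 120350979 to 120457636 of build mm9, had 1.58, 9.997, 11.5 and 2.25 CPM in KO livers, against 0.819, 1.497, 3.41 and 2.33 CPM in WT livers. KO 2 and KO 3 were high, and KO 1 and KO 4 lay within the range of WT livers. The difference of 1.65 (SE 0.43, edgeR adjusted p = 0.498, Benjamini-Hochberg) was 2.42 without WT 3 and WT 4, while at ZT0, ZT4, ZT8, ZT16 and ZT20 it was -0.19, -1.14, 0.77, 0.70 and -0.01. In WT livers Arntl averaged 16.2 ± 2.92 CPM at ZT16 (SD, n = 5), and the levels in KO 2 and KO 3 lay between the WT levels of ZT12 and ZT16. Clock had 34.1, 43.2, 53.9 and 32.9 CPM in KO livers and 24.9, 42.8, 17.2 and 19.9 CPM in WT livers, which overlapped. Its difference was 0.64 (SE 0.34), and 0.27 without WT 3 and WT 4.

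Among the E-box targets, Gm129 encodes CHRONO, a repressor of the BMAL1 and CLOCK pair. It had 25.1, 7.41, 8.47 and 25.7 CPM in KO livers, against 42.2, 36.3, 46.7 and 76.6 CPM in WT livers, a difference of -1.60 (SE 0.64). All KO livers were below all WT livers, with KO 2 and KO 3 the lowest, and the difference was -1.24 without WT 3 and WT 4. Dbp, a transcription factor of the PAR family, had 39.2, 14.5, 13.5 and 57.9 CPM in KO livers and 61.8, 45.4, 87.8 and 124 CPM in WT livers, a difference of -1.35 (SE 0.51) that was -0.78 without that pair. Again KO 2 and KO 3 were lowest, KO 4 overlapped the WT range and WT 4 was highest.

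Per1, Bhlhe41 and Nr1d1 act as further repressors in the loop. Per1 had 49.1, 42.4, 39.4 and 52.2 CPM in KO livers, all below the 62.9, 64.0, 111 and 89.1 CPM of WT livers, with a difference of -0.84 (SE 0.60), and -0.48 without WT 3 and WT 4. Bhlhe41 had 0.527, 0.167, 0.484 and 0.525 CPM in KO livers and 1.31, 0.748, 1.499 and 1.25 CPM in WT livers, which did not overlap. Nr1d1 had 4.90, 4.00, 5.73 and 13.3 CPM in KO livers and 9.42, 6.66, 31.98 and 30.04 CPM in WT livers. Its difference of -1.48 (SE 0.83) came to -0.21 without WT 3 and WT 4, which held the high levels. Per2 (-0.20), Per3 (-0.25), Cry1 (0.09), Cry2 (-0.54) and Nr1d2 (-0.14) had overlapping groups. Without WT 3 and WT 4 the values were 0.15 for Per2, 0.01 for Per3, 0.09 for Cry1, -0.17 for Cry2 and -0.67 for Nr1d2, so Per2 and Per3 turned.

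**Figure D2:**
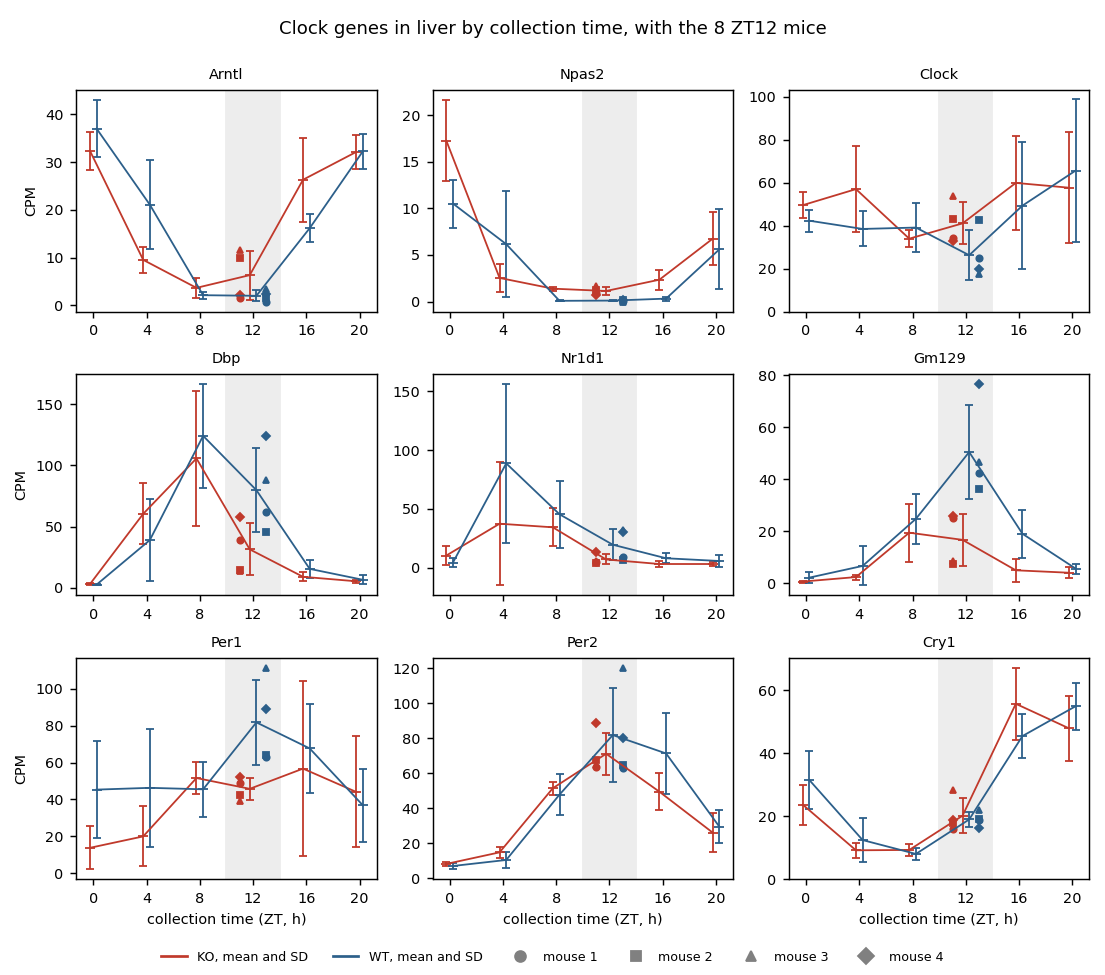
Levels in CPM of 9 core clock genes by collection time in hours, KO and WT means with SD over 3 to 5 mice, with the single mice of ZT12 as points and ZT12 shaded. At ZT12 the 4 KO points of Arntl split into 1.58 and 2.25 CPM and 9.997 and 11.5 CPM, and all KO points of Gm129 lie below the WT points.

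The promoters of 3 of these genes are shown because their levels lay on opposite sides of 0, Arntl above and the E-box targets Gm129 and Per1 below. Each sequence runs from 250 bases before to 50 bases after a transcription start given by RefSeq on build GRCm38.p6, with motif matches in capitals. Per1 and Arntl each have 2 starts, of which 1 was picked by hand, and the window of the other is not shown. The letters searched, on both strands, were the E-box CACGTG, the ROR element half-site AGGTCA, the cAMP element half-site TGACG and the AP-1 element TGANTCA.
Gm129 (RefSeq symbol Ciart), chr3:95882179-95882478, minus strand: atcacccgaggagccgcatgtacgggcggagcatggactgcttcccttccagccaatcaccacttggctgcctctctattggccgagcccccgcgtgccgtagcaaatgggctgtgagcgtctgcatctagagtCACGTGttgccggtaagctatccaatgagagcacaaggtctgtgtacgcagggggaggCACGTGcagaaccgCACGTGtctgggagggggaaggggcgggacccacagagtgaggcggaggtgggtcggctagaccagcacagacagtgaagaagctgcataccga
Per1, first of 2 starts, chr11:69098699-69098998, plus strand: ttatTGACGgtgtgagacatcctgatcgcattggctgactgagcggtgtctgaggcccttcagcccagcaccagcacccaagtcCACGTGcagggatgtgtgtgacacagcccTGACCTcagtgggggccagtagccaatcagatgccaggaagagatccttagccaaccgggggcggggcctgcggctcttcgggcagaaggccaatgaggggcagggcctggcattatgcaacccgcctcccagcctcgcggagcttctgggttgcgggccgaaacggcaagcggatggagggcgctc
Arntl, second of 2 starts, chr7:113207261-113207560, plus strand: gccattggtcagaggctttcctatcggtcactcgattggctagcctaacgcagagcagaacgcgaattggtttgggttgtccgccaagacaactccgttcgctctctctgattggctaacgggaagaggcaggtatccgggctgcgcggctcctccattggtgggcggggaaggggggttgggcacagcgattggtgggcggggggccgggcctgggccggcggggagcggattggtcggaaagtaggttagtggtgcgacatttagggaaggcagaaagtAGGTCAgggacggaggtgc

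In the Gm129 window the E-box occurred 3 times, with its first base at -116, -58 and -44 relative to the start. The Per1 window held 1 E-box at -166, 1 ROR half-site at -137 and 1 cAMP half-site at -246, none overlapping. In Arntl the capitals mark 1 ROR half-site, 32 bases after the start. The window of Npas2 held none of the 4 motifs. Of 32851 promoter windows of the same length, 7.15% held the E-box, 16.3% the ROR half-site, 20.8% the cAMP half-site and 7.81% the AP-1 element. Of 24 core clock genes, 19 had a window. Among these the E-box was found in 5 (Bhlhe41, Cry1, Gm129, Per1 and Tef), the ROR half-site in 5, the cAMP half-site in 7 and the AP-1 element in 0. A gene was counted if the window of any of its starts held the motif, so these counts are not directly comparable with the shares of single windows. These matches describe letters and not binding.

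Outputs of the clock were tested for 21 genes, 7 above 0 and 14 below, with a median of -0.26 (-0.09 without WT 3 and WT 4). KO livers were wholly below WT livers for 3, Lpin1, Rgs16 and Tspan4, against 1.9% of all genes. Lpin1, a phosphatidate phosphatase that also acts as a coactivator in fasted liver, had 157, 111, 65.1 and 139.8 CPM in KO livers, against 411, 313, 233 and 289 CPM in WT livers. The difference was -1.40 (SE 0.66), and -1.62 without WT 3 and WT 4. The regulator of G protein signalling Rgs16 had 100.3, 79.0, 164 and 214 CPM in KO livers and 311, 249.01, 341 and 228 CPM in WT livers. Alas1, the first enzyme of haem synthesis, had the smallest p of the list and a difference of -1.04, which was -0.23 without WT 3 and WT 4. Its levels were 397, 486, 573 and 720.0 CPM in KO livers and 748, 520.0, 1123 and 2085 CPM in WT livers.

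Immediate early genes, which are transcribed within minutes of a growth factor, hormone or stress signal, were the list with the most members below the range of WT livers. Of 20 tested, 17 were below 0 and 3 above, with a median of -0.86, against a median of -0.01 over all genes. KO livers lay wholly below WT livers for 9 of the 20, against 1.9% of all genes, and wholly above for 0. These 9, Egr1, Fos, Dusp1, Jund, Junb, Btg2, Zfp36, Jun and Ier2, also had an unadjusted p under 0.05, and edgeR called none of them, DESeq2 only Dusp1. The summed level of the list was 164 to 223 CPM in KO livers and 368 to 580 CPM in WT livers. The median was -0.43 without WT 3 and WT 4 and -0.45 with the GC slope of each library in the fit, so its size depended on that pair.

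Egr1, a zinc finger transcription factor, had 2.94, 12.8, 2.74 and 20.4 CPM in KO livers, against 55.4, 24.2, 48.6 and 48.8 CPM in WT livers. KO 4 came nearest to the WT livers. The difference was -2.18 (SE 0.70), and -2.04 without WT 3 and WT 4. Fos, a subunit of the AP-1 transcription factor, had 0.603, 0.833, 0.323 and 0.6004 CPM in KO livers and 3.36, 3.14, 1.999 and 1.58 CPM in WT livers. As for Dusp1, WT 3 and WT 4 were the WT livers nearest to the KO livers, and the difference was -2.08 (SE 0.64) with them and -2.45 without.

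The AP-1 partners Jun, Junb and Jund did not share one pattern among WT livers. Jun had 6.63, 6.498, 14.03 and 11.4 CPM in KO livers and 23.5, 19.9, 24.1 and 23.2 CPM in WT livers, with WT livers close together and a difference of -1.23 (-1.18 without WT 3 and WT 4). Junb had 5.88, 6.83, 4.35 and 11.1 CPM in KO livers and 16.2, 15.8, 23.7 and 29.04 CPM in WT livers, a difference of -1.59 (-1.19 without them). For Jund the levels were 9.19, 9.91, 11.9 and 13.7 CPM in KO livers and 14.6, 13.8, 48.4 and 80.9 CPM in WT livers. WT 3 and WT 4 carried that difference, which was -1.82 with them and -0.35 without.

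Zfp36, which encodes tristetraprolin, a protein that destabilises AU-rich transcripts, averaged 53.7 ± 15.4 CPM in KO livers and 144 ± 56.1 CPM in WT livers (SD, n = 4 each). Its difference was -1.43, and -0.89 without WT 3 and WT 4. The antiproliferative gene Btg2 averaged 7.93 ± 0.756 CPM in KO livers and 22.2 ± 4.62 CPM in WT livers (SD, n = 4 each), with no overlap. Members with overlapping groups included Myc (-0.89), Nr4a1 (-0.53), Klf4 (-0.27), Atf3 (0.01), Cyr61 (0.01) and Klf6 (0.20). Without WT 3 and WT 4 Myc was at 0.36, Atf3 at -0.43 and Klf6 at -0.17, each on the other side of 0, and Nr4a1 was at -0.41, Klf4 at -0.43 and Cyr61 at 0.27.

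Of 19 glucocorticoid responsive genes tested, 16 were below 0, as were 51.9% of all genes, and 3 above, with a median of -0.75 (-0.58 without WT 3 and WT 4). KO livers were wholly below WT livers for 5 (1.9% of all genes), Gadd45g, Dusp1, Fkbp5, Per1 and Errfi1, of which Dusp1 and Per1 are on the lists above as well. Fkbp5, a co-chaperone that binds the glucocorticoid receptor complex and a standard marker of its activity, had 111, 106, 63.9 and 84.8 CPM in KO livers, against 174, 201, 275 and 208 CPM in WT livers. WT livers were all above, and the difference was -1.23 (SE 0.43), and -1.04 without WT 3 and WT 4. Errfi1, an inhibitor of EGF receptor signalling, had 1806, 1259.9, 1208 and 1281 CPM in KO livers and 2116, 2200.3, 1996 and 2074 CPM in WT livers, a difference of -0.59. Gadd45g, a growth arrest and DNA damage gene, had 7.23, 7.66, 12.2 and 7.28 CPM in KO livers and 35.4, 37.2, 25.6 and 193 CPM in WT livers. WT 4 stood far above the rest, and the difference was -3.08 (SE 0.86), and -2.08 without WT 3 and WT 4.

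**Figure D3:**
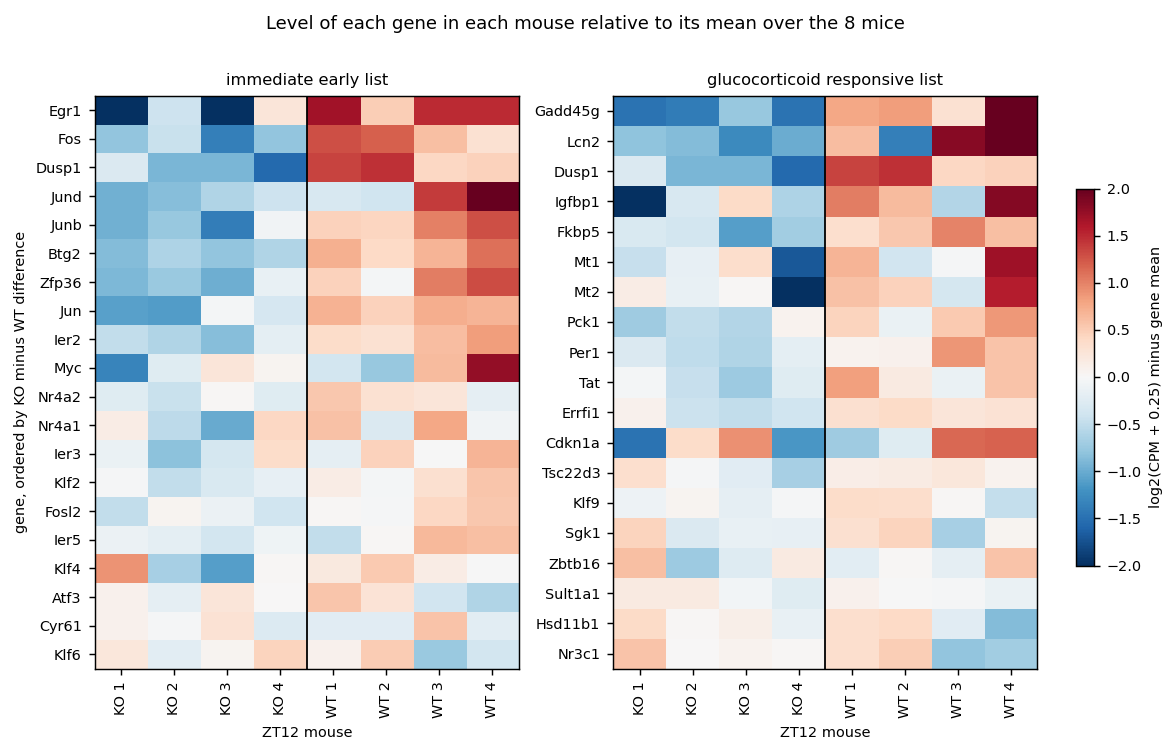
Levels of 20 immediate early and 19 glucocorticoid responsive genes in the 8 livers of ZT12, as log2(CPM + 0.25) minus the mean of the gene over the 8 livers, KO columns left and WT columns right. The summed immediate early level was 164 to 223 CPM in KO livers and 368 to 580 CPM in WT livers, and the columns of WT 3 and WT 4 differ from those of WT 1 and WT 2 for genes such as Jund.

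In a fasted liver, amino acids and lactate are turned into glucose, and Pck1 encodes the first committed enzyme of that path. Of 23 genes of gluconeogenesis and amino acid catabolism tested, 19 were below 0 and 4 above, with a median of -0.43 that was -0.13 without WT 3 and WT 4. KO livers were wholly below WT livers for 3 of them, against 1.9% of all genes. Pck1 overlapped, with 2043, 2372, 2229 and 3495 CPM in KO livers and 4524, 3046, 4809 and 6057 CPM in WT livers, a difference of -0.86 (SE 0.41). Only KO 4 reached above the lowest WT liver. Sds, serine dehydratase, had 192, 148, 84.9 and 187 CPM in KO livers and 231, 236, 257 and 506 CPM in WT livers, without overlap. The mitochondrial carrier Slc25a25 had 174, 239, 175 and 147 CPM in KO livers and 379, 332, 240.4 and 441 CPM in WT livers, with the smallest p of the list and a difference of -0.92 (SE 0.40). Foxo1, a transcription factor that drives this programme when insulin is low, had 72.9, 59.0, 62.7 and 70.0 CPM in KO livers and 84.9, 84.4, 84.3 and 90.3 CPM in WT livers, a difference of -0.38. Got1, a transaminase, differed by -1.51 with and -0.60 without WT 3 and WT 4.

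Acute phase genes, which the liver makes in inflammation, had 17 of 26 tested below 0 and a median of -0.45, which was -0.03 without WT 3 and WT 4. KO livers were wholly below WT livers for 3 of the 26, Orm2, Cebpb and Cebpd (1.9% of all genes). The acute phase protein Orm2 had 22.8, 19.3, 19.8 and 29.9 CPM in KO livers, against 34.1, 34.2, 246 and 137 CPM in WT livers. The carrier of siderophores Lcn2 had 22.8, 21.9, 16.4 and 20.1 CPM in KO livers and 61.5, 15.4, 143 and 291 CPM in WT livers. In both, WT 3 and WT 4 were highest. Lcn2 is also on the neutrophil list, and its 143 CPM made up nearly all of the 146 CPM of that list in WT 3. In WT 4 it held 291 of 464 CPM. The mean log2 level of the neutrophil list was 3.75 in WT 4, against -0.79 in WT 3 and -0.83 in WT 2. The part of neutrophils in the result was not tested. The differences of Orm2 and Lcn2, -2.29 and -2.65, were -0.58 and -0.93 without WT 3 and WT 4. The transcription factor Cebpd had 6.48, 5.42, 4.9996 and 4.203 CPM in KO livers and 9.17, 9.80, 14.3 and 19.6 CPM in WT livers, a difference of -1.32 (-0.85 without the pair).

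MAP kinase phosphatases and growth arrest genes had 10 of 15 tested below 0, and their median of -0.35 was -0.10 without WT 3 and WT 4. Their lowest p belonged to Dusp1, described above.

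Genes of lipid uptake and storage had more members above 0. Of 19 tested, 13 were above 0 and 6 below, with a median of 0.20 (0.49 without WT 3 and WT 4). That median was 0.08 with body weight in the fit and 0.08 to 0.51 when 1 mouse was left out. KO livers were wholly above WT livers for 2, Cd36 and Lpl (1.35% of all genes). Cd36, a fatty acid translocase, had 399, 404, 638 and 468 CPM in KO livers, against 249.7, 226, 218 and 197 CPM in WT livers. The gap between the groups was wide, and the difference was 1.10 (SE 0.35) with and 1.00 without WT 3 and WT 4. Over the other 5 times Cd36 was among the genes called, with a difference of 0.67. Lpl, lipoprotein lipase and also on the adipocyte marker list, had 16.4, 25.7, 29.03 and 22.2 CPM in KO livers and 12.0, 16.0, 4.75 and 6.24 CPM in WT livers, with KO 1 just above WT 2. Its difference of 1.26 (SE 0.44) was 0.73 without WT 3 and WT 4.

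PPAR alpha is the nuclear receptor that switches on fatty acid oxidation and ketone synthesis in fasting. Of 28 of its targets tested, 20 were above 0 and 8 below, with a median of 0.17, and 0.43 without WT 3 and WT 4, when 26 were above 0. Groups overlapped for all 28. Pdk4, the kinase that shuts pyruvate dehydrogenase, had the smallest p, with 13.8, 47.3, 217 and 40.5 CPM in KO livers and 41.1, 44.7, 10.7 and 25.9 CPM in WT livers. KO 3 alone made its mean high.

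Sterol synthesis and uptake also turned with that pair. Of 23 genes tested, 8 were above 0 and 15 below, with a median of -0.11, while without WT 3 and WT 4 there were 20 above and 3 below, with a median of 0.39. Srebf2, the transcription factor of the pathway, had 22.4, 35.4, 33.2 and 32.9 CPM in KO livers and 25.9, 18.4, 128 and 99.9 CPM in WT livers. Its difference was -1.14 with the pair and 0.48 without. Fatty acid and triglyceride synthesis had 11 genes above 0 and 12 below, with a median of -0.05 (0.07 without the pair). Within it the elongase Elovl3, which cycles with the clock in liver, had 4.14, 25.0, 23.1 and 6.68 CPM in KO livers and 3.03, 2.69, 4.66 and 3.91 CPM in WT livers. As for Arntl, KO 2 and KO 3 were high and the groups overlapped, with a difference of 2.04 (SE 0.67).

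Interferon response genes, which defend against viruses, had 22 of 26 tested above 0 and 4 below, with a median of 0.39 (0.40 without WT 3 and WT 4, when 24 were above 0). KO livers were wholly above WT livers for 3, Rsad2, Ifit1 and Gbp3 (1.35% of all genes), and wholly below for 0 (1.9% of all genes). Ifit1, which binds viral RNA, had 20.7, 14.9, 13.1 and 13.8 CPM in KO livers, against 8.02, 9.65, 8.58 and 8.90 CPM in WT livers. KO 1 was the highest, and the difference was 0.83 (SE 0.41). Rsad2, which encodes viperin, had 8.44, 10.7, 11.2 and 9.53 CPM in KO livers and 5.40, 5.69, 6.16 and 6.99 CPM in WT livers, a difference of 0.72 (SE 0.33). The guanylate-binding protein Gbp3 had 23.1, 14.4, 17.1 and 21.0 CPM in KO livers and 12.4, 9.21, 13.7 and 8.99 CPM in WT livers, a difference of 0.77. Of the transcription factors of the response, Stat2 was at -0.09, Irf1 at 0.01 and Irf7 at 0.16, and without WT 3 and WT 4 they were at 0.21, 0.41 and 0.26. The list's median was 0.19 with the GC slope of each library in the fit.

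Heat shock and temperature responsive genes had 12 of 16 tested above 0, with a median of 0.25. KO livers were wholly above WT livers for 2 of the 16 (1.35% of all genes), Hspe1 and Dnajb1, a chaperonin subunit and a co-chaperone. Hspe1 had 276, 249.6, 267 and 256 CPM in KO livers and 224, 242, 164 and 243 CPM in WT livers, a difference of 0.26 (0.17 without WT 3 and WT 4). Hsph1, a large heat shock protein, had the smallest p, with 56.2, 79.1, 132 and 99.1 CPM in KO livers and 49.6, 79.8, 46.2 and 44.5 CPM in WT livers, a difference of 0.73 (SE 0.31). The inducible chaperone Hspa1b had 1.1303, 5.498, 18.4 and 5.33 CPM in KO livers and 1.80, 2.62, 1.999 and 2.66 CPM in WT livers, with KO 3 highest and KO 1 lowest of the 8.

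The remaining pathway lists had medians between -0.33 and 0.12. In glycolysis and glycogen, Pfkfb3, which makes the activator of phosphofructokinase, had 10.7, 5.50, 6.13 and 7.58 CPM in KO livers and 21.0, 22.5, 11.4 and 8.24 CPM in WT livers, a difference of -1.08 (SE 0.34). WT 3 and WT 4 were the lower WT livers, and the difference was -1.54 without them. The glycolytic enzyme Pgk1 differed by 0.13 (0.06 without them). In insulin, IGF and growth hormone signalling, Enho, which encodes the secreted peptide adropin, had 12.0, 11.5, 5.24 and 8.33 CPM in KO livers and 13.9, 16.5, 17.2 and 29.2 CPM in WT livers, a difference of -1.05 (SE 0.47).

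Cyp7a1, the rate-limiting enzyme of bile acid synthesis, had 305, 389, 182 and 57.1 CPM in KO livers and 146, 53.1, 71.4 and 187 CPM in WT livers, which overlapped. Of 18 bile acid genes 10 were above 0, and the smallest p was that of Hsd3b7 (0.39, and 0.60 without WT 3 and WT 4). In xenobiotic metabolism and among female-biased liver genes the smallest p was that of Cyp2b9 (0.41), with list medians of 0.09 and 0.08, and 0.03 and 0.30 without WT 3 and WT 4. Male-biased genes had a median of -0.33 over 14 tested (-0.17 without that pair). Their smallest p was that of Elovl3, which was above 0 (2.04). Medians were -0.16 for the unfolded protein response, with Dnajb11 at -0.33, and 0.12 for NRF2 targets, with Sod2 at 0.25. Without WT 3 and WT 4 they were -0.03, with Dnajb11 at -0.06, and 0.19, with Sod2 at 0.31. In the cell cycle list (median -0.20, and -0.09 without the pair) Rrm2, a subunit of ribonucleotide reductase, had 5.27, 2.92, 2.26 and 2.18 CPM in KO livers and 7.53, 10.03, 7.33 and 5.16 CPM in WT livers. KO 1 just passed the lowest WT liver, and the difference was -1.25 (SE 0.40).

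**Figure D4:**
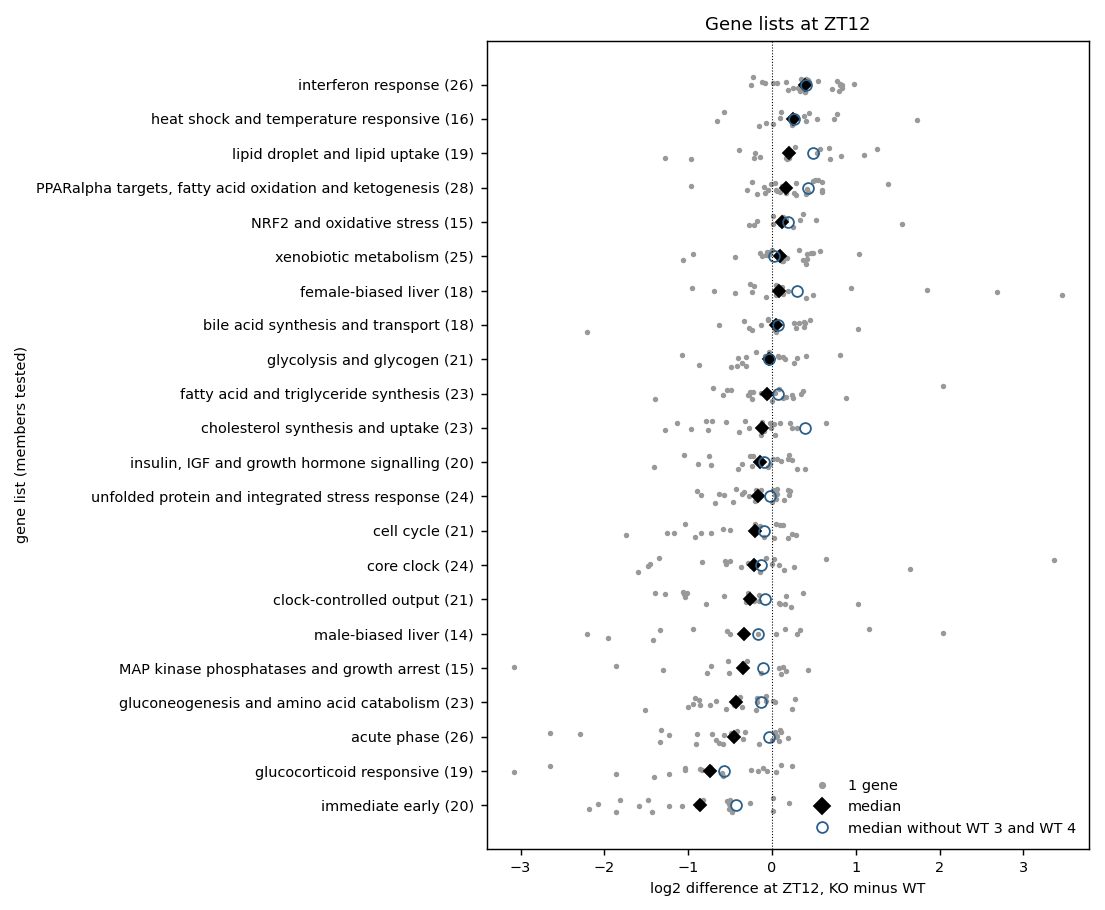
KO minus WT difference on the log2 scale at ZT12 for the genes (grey points) of 22 pathway lists, with the median of each list over all livers (diamond) and without WT 3 and WT 4 (open circle). The immediate early median moves to -0.43 without them, against -0.86, and the cholesterol median to 0.39, against -0.11, while the interferon median is 0.40, against 0.39.

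All 11 neutrophil genes tested were below 0, with a median of -3.00, and without WT 3 and WT 4 the median was 0.21 with 7 above 0. Ltf, the granule protein lactotransferrin, had 21.6 CPM in WT 4, and the next highest WT liver had 0.0833 CPM. Kupffer cell and macrophage genes had 12 of 15 above 0 and a median of 0.46, and 9 of 15 and 0.13 without the pair. Their sums were 461 to 690 CPM in KO livers and 276 to 700 CPM in WT livers, so the groups overlapped. Endothelial genes (median 0.20), stellate cell genes (-0.10) and cholangiocyte genes (-0.44) also had overlapping sums, with medians of 0.04, -0.34 and -0.37 without the pair. Exocrine pancreas genes, a sign of tissue carried over, were at 8.71 to 11.8 CPM in KO livers and 6.91 to 9.50 CPM in WT livers in all, nearly all of it Cela1, and Pnlip and Cpb1 had 0 counts in every ZT12 liver.

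To set ZT12 beside other mice, genes were called on the KO minus WT difference averaged over the other 5 times, which share no liver with ZT12. There, edgeR called 27 genes higher (0.198%) and 44 lower (0.322%) in KO livers. At ZT12, 26 of the 27 were also above 0 (96.3%, against 48.1% of all genes), and 44 of the 44 were also below 0 (against 51.9% of all genes). The exception was Mpped2, at -0.33. KO and WT livers of ZT12 did not overlap for 8 of the 27 (1.35% of all genes) and 12 of the 44 (1.9% of all genes). The median differences at ZT12 were 0.61 and -0.85, against 1.03 and -0.94 over the other 5 times.

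The genes lower in KO livers on the mean of the other 5 times included Dusp1, Fos, Jun, Junb and Zfp36 of the immediate early list. Single times varied, and at ZT16 these genes were at -0.84, -0.06, -0.42, -0.04 and -0.65. Dusp1 had -1.86 at ZT12 (SE 0.43) and -1.60 over the other 5 times (SE 0.19, edgeR adjusted p = 3.03e-06, Benjamini-Hochberg). Aim1l had -3.43 and -1.83 (edgeR adjusted p over the other 5 times 0.000152, Benjamini-Hochberg), and Rec8 had -2.20 and -1.74. Timp3, an inhibitor of metalloproteinases, had -0.77 and -1.09. Further genes called lower that are not on the immediate early list included Podn (-1.20 and -1.26), Serpine2 (-0.93 and -1.34) and Mgp (-0.50 and -0.94). Sparcl1 (-0.39 and -0.71) and, of the stellate cell list, Gsn (-0.52 and -0.90) were called as well. The genes lower at the other times were thus not an immediate early set alone. Egr1 was not called over the other 5 times, where its difference was -0.54.

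The genes higher on the mean of the other 5 times included Npas2, with 3.36 at ZT12 and 1.33 over the other 5 times. At ZT0, ZT4, ZT8, ZT16 and ZT20 Npas2 was at 0.72, -1.28, 4.07, 2.89 and 0.27, so it was not higher at every time. Also called were Cd36 (1.10 and 0.67) and the interferon genes Ifit1 (0.83 and 0.78), Gbp10 (0.99 and 1.19) and Usp18. Usp18 had 0.45 and 0.51, the first 0.78 without WT 3 and WT 4. Lox, the collagen crosslinking enzyme lysyl oxidase, had 1.85 and 1.24, with 1.14 at ZT12 without that pair. At ZT12 its groups overlapped, and its highest levels were 0.826 CPM in KO livers and 0.374 CPM in WT livers. Its ZT12 difference is therefore imprecise (SE 0.71). Of the 15 stellate cell genes tested, Lox among them, 10 were below 0 at ZT12 and 5 above, with a median of -0.10. Several Mup genes, which encode major urinary proteins, were among the genes called higher, with 0.94 and 1.41 for Mup2. Mup genes are near-identical copies whose reads the counting may have split, so their single values are uncertain. No gene of these 71 passed the test of a departure of ZT12 from the other times.

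**Figure D5:**
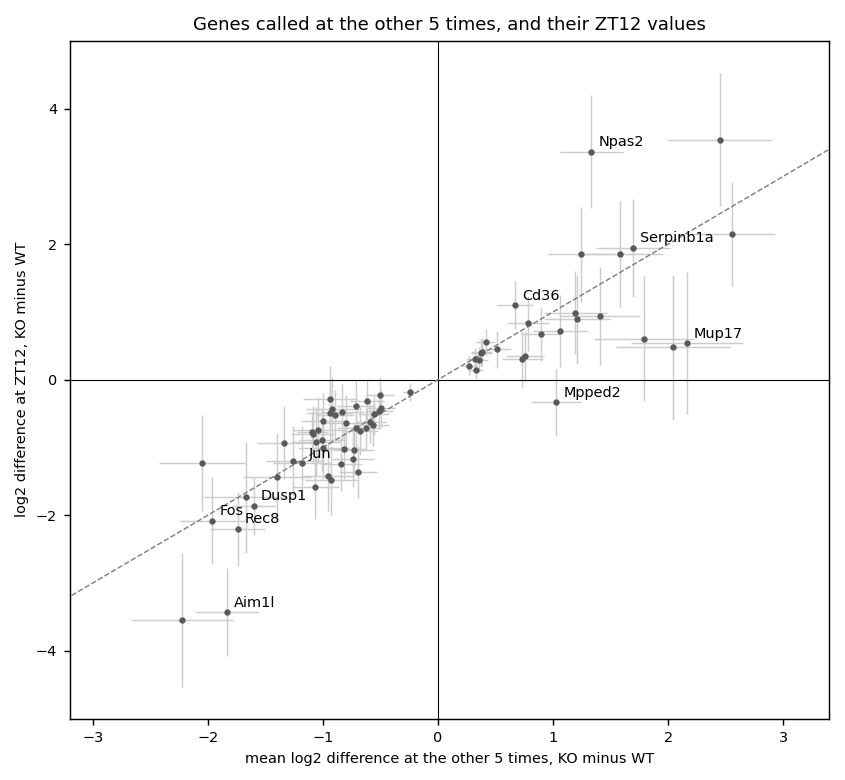
KO minus WT difference on the log2 scale at ZT12 (vertical axis) against the mean difference over the other 5 times (horizontal axis) for the 71 genes called there; bars are 1 SE, and the dashed line marks equal differences. Of the genes called higher, 26 of 27 lie above 0 at ZT12, and of those called lower, 44 of 44 lie below 0.

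Body weight was the measure in the labels, other than genotype, that could differ between the groups. KO mice weighed 20.6, 22, 25.4 and 20.4 g, against 18.7, 20.6, 20.9 and 20.2 g for WT mice. KO 3 was the heaviest, and the ranges overlapped. The means were 22.1 ± 2.31 g in KO mice and 20.1 ± 0.976 g in WT mice (SD, n = 4 each), and the difference of 2.0 g did not pass an exact permutation test (two-sided p = 0.2, smallest possible 0.0286). Between mice of the same number and age, KO minus WT was 1.9, 1.4, 4.5 and 0.2 g.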

How the data were processed

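Liver polyA RNA was sequenced from stranded libraries, per the labels' protocols. The submitters' processing notes name build mm9, STAR 2.4.1d and CASAVA, the last without a version. The values the authors deposited are whole-number read counts per gene with mm9 coordinates, per the file headers. Which program counted the reads, on which annotation, and whether depth was equalised are not given in the sources used here. Alb, whose values made up 5.66% to 14.6% of the deposited counts, was left out of library sizes and tests, because its values moved in steps too coarse for plain counts.

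Counts of the remaining 22353 genes were filtered by filterByExpr, which kept 13646, and scaled by TMM (factors 0.892 to 1.11). A quasi-likelihood model (R 4.3.3, edgeR 4.0.16, limma 3.58.1) with 12 genotype-by-time groups and 36 residual degrees of freedom used all 48 libraries, so the ZT12 contrast borrows the spread of the other groups. Benjamini-Hochberg adjustment ran over all genes tested, with a threshold of 0.05. SE is the size of the log2 difference divided by the root of its F statistic. Levels are CPM with TMM-scaled library sizes. The script was tested on simulated data.

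DESeq2 1.42.0, RLE scaling, no count filter, body weight as covariate, the replicate block, the ZT12 libraries alone and leaving out each ZT12 mouse were alternatives. The GC slope as covariate and leaving out WT 3 and WT 4 were added after the data were seen. GC content is the median over GENCODE M21 transcripts of a gene, known for 97.6% of tested genes. Depth differed little between libraries. Precision is limited by 4 mice a group, and counting error also matters for genes near 1 CPM or below.

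The 22 pathway and 10 cell type lists hold 592 entries, of which 588 matched by symbol and 550 were tested. Members and lists were chosen with earlier results of these data known. Named genes were Arntl, the 8 genes in each direction with the smallest p among genes whose log2 CPM averaged 0 or more, the member of each list with the smallest p, and the core clock. Other genes named, among them those whose groups did not overlap, were chosen after their values were seen. Symbols are those of the deposited table, and promoters were matched to RefSeq by symbol.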

Additional observations from a re-analysis of the deposited data

Results flagged for a closer look

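In 13 of 166 groups of 4 livers looked at, 1 liver stood far from the other 3 by Dixon's test. Some of the genes, such as Igkv3-2 and Cd79b, were chosen after their values were seen. The count of 13 can therefore not be set against a chance rate. Of the 13, 7 concerned WT 3 or WT 4. Ighm, the heavy chain of IgM, had 294 CPM in WT 3, where the next highest WT liver had 8.01 CPM. Igkv3-2, an immunoglobulin light chain segment, had 31.1 CPM and the B cell receptor subunit Cd79b 3.75 CPM in the same liver. Ltf had 21.6 CPM in WT 4, and the other WT livers at most 0.0833 CPM. Gadd45g had 193 CPM in WT 4, with the next WT liver at 37.2 CPM. Mpzl1 had 0.750 CPM in WT 3, the low end of its group, and Hsd3b7 467 CPM, the high end. Immunoglobulin segments are near-identical copies, so the value of Igkv3-2 is uncertain.

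Among KO livers, Pdk4 had 217 CPM in KO 3, Gadd45g 12.2 CPM in KO 3, Per2 88.8 CPM in KO 4 and Bhlhe41 0.167 CPM in KO 2. In the other WT livers, Cyp2b9 had 694 CPM in WT 1 and Hsph1 79.8 CPM in WT 2.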

How the results depend on the processing

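The count of 0 genes called between KO and WT livers at ZT12 was 0 with RLE scaling, the replicate block, the ZT12 libraries alone, the GC slope and without WT 3 and WT 4, 3 with DESeq2, 1 without a count filter, 1 with body weight in the fit, and 0 to 2 when a mouse was left out. Aim1l was called without the filter (adjusted p = 0.0475, edgeR with Benjamini-Hochberg), with body weight (0.0493), without WT 1 (0.0406) and, with Pxdn, without WT 2. The 176 genes higher at an unadjusted p under 0.05 were 301 without WT 3 and WT 4 and 113 to 346 without 1 mouse. The 424 lower were 643 without the filter, 233 with the GC slope, 261 without WT 3 and WT 4 and 226 to 870 without 1 mouse. Departures from the other 5 times were 0 under every alternative that gave a value, and the weight difference was 0.9 to 2.57 g without 1 mouse. The differences of 51 named genes were recomputed under the alternatives, and those of 46 with the ZT12 libraries alone. Leaving out WT 3 and WT 4 turned 5 of the 51 to above 0, those of Gnat1 (0.085), Srebf2 (0.48), Ass1 (0.24), Ighm (0.11) and Ltf (0.0018). Leaving out WT 3 alone turned Ighm (0.12, against -3.77 at the lowest). The cause was not tested. Other genes that turned without that pair are given with their results. Aim1l ranged over -3.64 to -2.76, Dusp1 over -2.11 to -1.67, Pxdn over 0.73 to 1.06, Npas2 over 2.99 to 3.67 and Arntl over 1.18 to 2.02 without 1 mouse. The replicate block within time called 0 genes and changed no call. Same-numbered KO and WT livers had correlations of deviations of 0.56, -0.41, 0.10 and 0.46. The numbers share an age, and so few correlations cannot show whether they also pair the livers.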
